A study of Mus musculus with 6 samples.

Results

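Cluster 2 was a group of Il17a-rich CD4 T cells of the mouse colonic lamina propria, the connective tissue layer under the gut epithelium. Its members were the cells with number 2 in the authors' deposited clustering and an assigned hashed replicate, 2075 of 18874 assigned cells. They are set mainly beside the other 4 Il17a-rich clusters of the series, numbered 1, 3, 12 and 13, which held 2369, 1801, 326 and 217 such cells, 4713 in all. The study sorted CD4 T cells by flow cytometry into a tdTomato+GFP+ and a tdTomato-GFP- gate, and sequenced RNA and T cell receptors of single cells by droplet capture. All samples carried a Foxp3{delta}EGFPiCre allele beside a WT one, and R26lsl-tdTomato/wt. Foxp3 is the X-linked factor that defines regulatory T (Treg) cells, so the inserted allele ties EGFP and the iCre recombinase to Foxp3 transcription, and the R26lsl-tdTomato allele marks cells after Cre action. The tdTomato+GFP+ gate held cells with both reporters, while the tdTomato-GFP- gate held CD4 T cells with neither, so cells with a single reporter were in neither gate. No treatment, age or strain was named, and the sources used here did not give the animals behind the replicates. Each gate was 1 lane that pooled 3 hashed replicates. Gate and lane therefore cannot be told apart, and p-values measure the spread between these replicates.

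T helper 17 (Th17) cells are CD4 T cells that secrete IL-17A and IL-17F, which act on epithelium and draw neutrophils. IL-23 and IL-1 receptors sustain them, and in mouse models Th17 cells that also make IFN-gamma or GM-CSF are linked to tissue inflammation, while those that make IL-10 are linked to tolerance. In the gut they depend on the microbiota.

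The tdTomato+GFP+ gate gave 286, 859 and 454 cluster 2 cells in replicates 1 to 3, and the tdTomato-GFP- gate gave 256, 119 and 101. Their summed UMIs (counts of distinct RNA molecules) were 1057301, 3692606 and 1734891 in tdTomato+GFP+ cells, and 1151400, 508252 and 450293 in tdTomato-GFP- cells, so the tdTomato-GFP- replicates 2 and 3 had the least depth. Median UMIs per cluster 2 cell were 3264 to 3497.5 in tdTomato+GFP+ and 3722 to 3885 in tdTomato-GFP- replicates. No barcode of cluster 2 occurred in both lanes (0 cells, against 106 barcodes among all assigned cells). Levels are UMI counts scaled to a common total (CPM) without the hashtags.

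The Th17 label was checked against its markers and T cell genes. Cells with an Il17a UMI made up 98.0% ± 0.863 of tdTomato+GFP+ and 94.9% ± 2.09 of tdTomato-GFP- cluster 2 cells after every cell was thinned to 2000 UMIs (SD, n = 3 each). In cluster 9, a naive-like cluster that should lack the gene, the thinned shares were 9.33% ± 10.1 in tdTomato+GFP+ (6, 20 and 27 cells before thinning) and 1.25% ± 0.352 in tdTomato-GFP- cells. The alpha beta T cell genes Cd3e, Cd4 and Trac were present. The B cell gene Ms4a1 and the NK and innate lymphoid genes Ncr1, Eomes and Il22ra2 had no UMI in cluster 2, but other markers of these cells did. Of 11 B and plasma markers 9 were seen, summing to 177 to 244 CPM in tdTomato+GFP+ and 199 to 278 CPM in tdTomato-GFP- replicates. Of 8 NK and innate lymphoid markers measured 5 were seen, summing to 32.2 to 46.7 and 73.3 to 120 CPM in the same order. The 5 marker genes given for the cluster were detected unequally. Thinned shares ranged from 98.0% for Il17a to 4.19% for Cxcl3 in tdTomato+GFP+ cells. For Gzmb, which encodes the protease granzyme B, the tdTomato-GFP- share of 9.19% lay close to the 8.59% of cluster 0, a cluster outside the Il17a-rich group, and above the 0.931% of cluster 9.

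Cluster 2 held an intermediate Il17a level among the 5 Il17a-rich clusters. Il17a (chromosome 1, 20730905 to 20734496, plus strand, GRCm38) encodes the defining Th17 cytokine. It reached 10116, 9831 and 9419 CPM in the 3 tdTomato+GFP+ replicates and 9268, 8972 and 9032 CPM in the 3 tdTomato-GFP- replicates of cluster 2. In tdTomato+GFP+ cells the order of the means ran from 49639.6 CPM ± 845 in cluster 12 through 23202 ± 549 in cluster 1 and 11396 ± 1311 in cluster 13 to 9789 ± 351 in cluster 2 and 7889.8 ± 791 in cluster 3 (SD, n = 3). The values of neighbouring clusters in that order did not overlap. In tdTomato-GFP- cells cluster 2, with 9091 ± 156 CPM, stood below cluster 1 with 23504 ± 347 and above cluster 3 with 6120.5 ± 434. Clusters 12 and 13 had too few tdTomato-GFP- cells for a level. These levels took part in the clustering and are a description with no test.

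**Figure D1:**
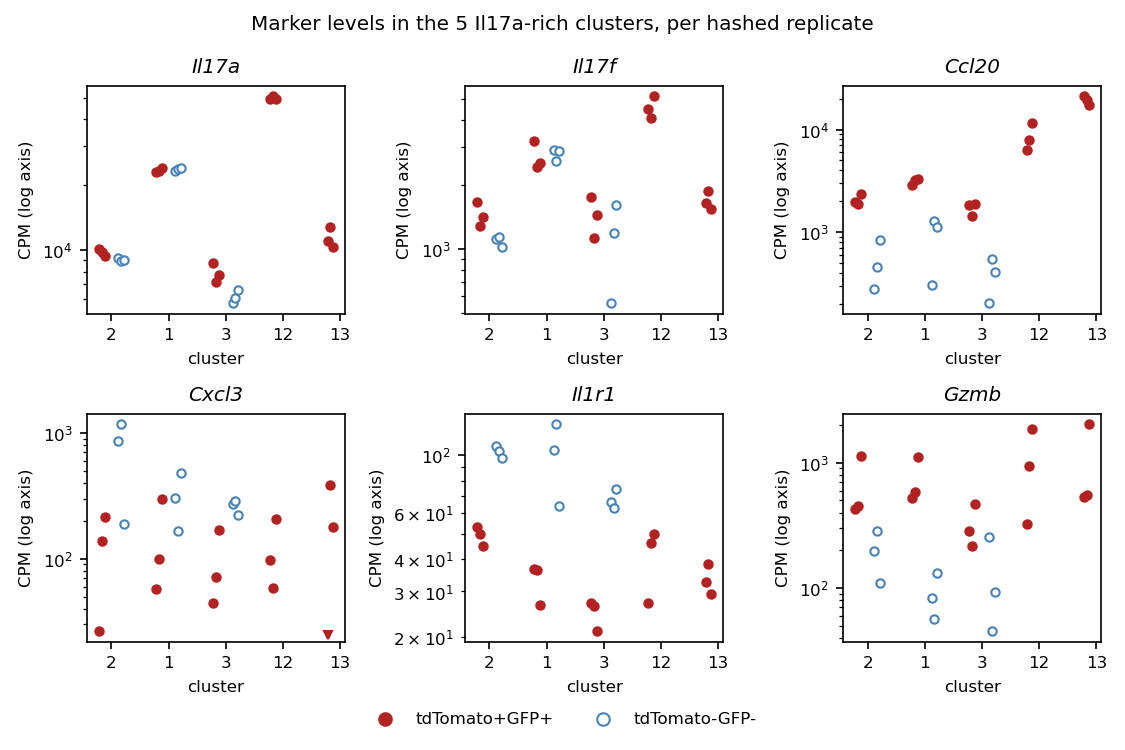
CPM on log axes of the 5 given markers and Il17f in each hashed replicate, by cluster, with cluster 2 at the left. Filled red points are tdTomato+GFP+ and open blue points tdTomato-GFP- replicates, and the triangle at the foot of the Cxcl3 plot marks a replicate of cluster 13 at 0. Cluster 2 lies below clusters 1, 12 and 13 in Il17a, and its Ccl20 values are separated by gate.

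Against the other 4 clusters summed within the same replicate, cluster 2 had less Il17a, Il17f and Ccl20 RNA and more RNA of naive and central memory genes. The cytokine direction did not hold against cluster 3 alone. There cluster 2 was higher in Il17a (9789 against 7889.8 CPM in tdTomato+GFP+ and 9091 against 6120.5 CPM in tdTomato-GFP- cells) and in mean Ccl20 (2065 against 1721 and 522 against 387 CPM), and close in Il17f (1451 against 1436 and 1090 against 1115 CPM). The other cytokine RNAs Il22 and Csf2 had mean log2 differences of -0.05 (SD 0.63) and 0.07 (SD 0.82) from the 4 clusters together. Ccr7, Tcf7 and Klf2, which mark naive and central memory T cells, stood among the highest by rule, and Il17a, Ccl20, Il17f, Lgals1 and Actb among the lowest. Over 7992 genes with at least 10 CPM, 786 were higher in cluster 2 in 6 of 6 replicates (9.83%) and 617 were lower in 6 of 6 (7.72%). These genes took part in the clustering, so the values describe the cluster and carry no test.

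Of the 11 naive and central memory genes with at least 10 CPM, 9 were higher in 6 of 6 replicates and 0 were lower. Over all genes 9.83% were higher and 7.72% lower. The median log2 difference was 0.43, against 0.02 over all genes. Tcf7, which encodes the factor TCF-1 of self-renewing T cells, had 72.8, 90.7 and 88.2 CPM in tdTomato+GFP+ cluster 2 cells, against 51.8, 52.2 and 44.3 CPM in the other 4 clusters. Its tdTomato-GFP- values were 142, 177 and 124 CPM in cluster 2, against 64.2, 62.5 and 84.1 CPM. Within each gate the values of cluster 2 did not overlap with those of the other 4 clusters. Klf2, which drives genes of lymphocyte egress, had 480.5, 458 and 489.9 CPM in tdTomato+GFP+ cluster 2 cells, against 274, 309 and 264 CPM in the others. In tdTomato-GFP- cells it had 472, 651 and 602 CPM in cluster 2, against 392, 312 and 317 CPM, again without overlap. Taken alone, cluster 13 did overlap with cluster 2 in tdTomato+GFP+ cells, with 540, 318 and 447 CPM of Klf2. Ccr7, the receptor that guides cells to lymph nodes, averaged 57.3 CPM in cluster 2 and 25.0 CPM in the others (mean log2 0.84, SD 0.41, higher in 6 of 6). It had the widest spread of these, from 0.20 to 1.33 on the log2 scale.

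Immediate early genes also stood higher in cluster 2. Of 18 genes on the list of AP-1 and dissociation stress genes, 9 were higher in 6 of 6 and 0 lower (median log2 0.36). Fos, an AP-1 subunit, averaged 2694 CPM in cluster 2 and 1790.5 CPM in the other clusters, and Socs3, which dampens STAT3 signals, 98.4 and 48.5 CPM (mean log2 0.59 and 0.78, each higher in 6 of 6). Cluster 13, the smallest of the 4, had a Fos level like that of cluster 2 in tdTomato+GFP+ cells, with 2384, 2579 and 3045 CPM in cluster 2 against 2474, 3064 and 2319 CPM in cluster 13. Zfp36l2, which promotes decay of cytokine mRNAs, averaged 264 and 158 CPM, and Cxcr4, a chemokine receptor, 146 and 82.6 CPM, in cluster 2 and the others in that order. Enzymatic digestion of tissue is known to induce AP-1 genes, and its part was not tested. Among 20 listed chemokine receptor and homing genes 11 were higher and 3 lower in 6 of 6, and for 16 NF-kB genes these counts were 7 and 0. Over all genes with at least 10 CPM, 9.83% were higher and 7.72% lower in 6 of 6.

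The genes lowest in cluster 2 by rule had varied known roles. Il17a was lower in 6 of 6 replicates (mean log2 -0.86, SD 0.13), as were Ccl20 (-0.84), which encodes the ligand of CCR6, and Il17f (-0.78). Lgals1, which encodes galectin-1, averaged 1873 CPM in cluster 2 and 2954 CPM in the others, and Actb, cytoskeletal actin, 10276 and 14629.6 CPM. The differences of Actb varied little, from -0.53 to -0.48. Of 25 oxidative phosphorylation genes 16 were lower and 0 higher in 6 of 6 (median -0.17), and of 17 glycolysis genes 6 were lower and 1 higher (median -0.13). Of 16 secreted cytokine genes 1 was higher and 2 lower (median 0.00), while over all genes 9.83% were higher and 7.72% lower. The listed Th17 genes went both ways, with 3 of 18 higher, 6 lower and a median of -0.01. Il1r1, the IL-1 receptor chain that supports Th17 cells, was higher in 6 of 6 (mean log2 0.36, SD 0.13). Against cluster 1 alone its tdTomato-GFP- values overlapped, with 109, 104 and 97.7 CPM in cluster 2 and 105, 132 and 63.8 CPM in cluster 1. In tdTomato+GFP+ cells they did not, with 53.0, 49.8 and 45.0 CPM against 36.5, 36.4 and 26.7 CPM. Median UMIs per cell in cluster 2 were at most 3885, against 3512 to 4072 in cluster 1 and 3327 to 4408 in cluster 3, and the share of ribosomal protein RNA was 10.1% to 11.4% in cluster 2, against 9.14% to 9.83% in cluster 1. The part of depth and RNA content in these differences was not tested.

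**Figure D2:**
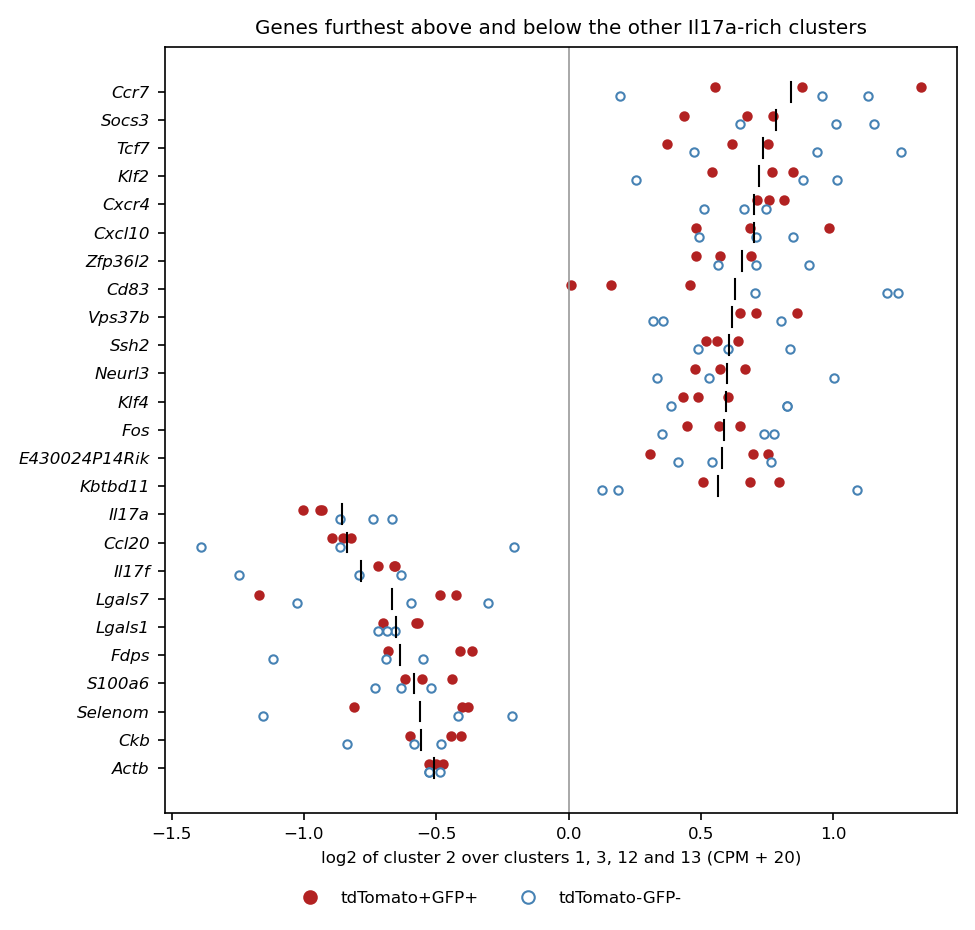
Log2 ratio of cluster 2 over clusters 1, 3, 12 and 13 in each hashed replicate, with 20 CPM added, for the 15 genes furthest above and the 10 furthest below. Filled red points are tdTomato+GFP+ and open blue points tdTomato-GFP- replicates, and black bars are means of 6. Cd83 differs most by gate, with tdTomato+GFP+ points near 0 and tdTomato-GFP- points up to 1.24.

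Cluster 2 made up 16.6%, 18.8% and 19.0% of clustered cells in the tdTomato+GFP+ replicates, against 5.02%, 3.88% and 5.56% in the tdTomato-GFP- replicates. The groups did not overlap (means 18.1% ± 1.35 and 4.82% ± 0.86, SD, n = 3 each; two-sided exact permutation test, p = 0.1, the smallest that 3 against 3 allows). Within the 5 Il17a-rich clusters the order was the other way round. There cluster 2 took 22.4%, 28.8% and 32.3% of tdTomato+GFP+ cells, against 42.7%, 40.5% and 44.1% of tdTomato-GFP- cells, again without overlap (difference -14.6 points, exact permutation test, p = 0.1). With 1 cell kept per clonotype (cells with the same receptor) the second comparison had overlapping groups, 24.8%, 29.8% and 35.4% against 40.5%, 35.4% and 42.5% (exact permutation test, p = 0.2). Genes that differ between the gates took part in the clustering, so both shares are descriptions.

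Between the gates, cluster 2 cells carried much the same Il17a RNA but different sets of other cytokine, receptor and signalling RNAs. In tdTomato+GFP+ cells Foxp3, the vitamin D receptor gene Vdr and Mstn, which encodes the growth factor myostatin, were higher. Ifng, Cxcr3, Il1r1 and Il17re were lower. Of 8139 genes tested, 410 were called (5.04%), 186 higher (2.29%) and 224 lower (2.75%) at an adjusted p under 0.05 by edgeR's quasi-likelihood test with Benjamini-Hochberg adjustment. The median log2 fold change over all tested genes was 0.00. Counts of listed genes given below are to be set beside 2.29% higher and 2.75% lower over all genes tested. Without tdTomato-GFP- replicate 1, the deepest of that gate, 103 genes were higher and 122 lower. Replicates did not overlap for 1009 genes higher (12.4%) and 783 lower (9.62%).

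Foxp3 (chromosome X, 7573644 to 7595245, plus strand, GRCm38) had 191, 159.5 and 170.0 CPM in tdTomato+GFP+, against 61.7, 43.3 and 37.8 CPM in tdTomato-GFP- replicates of cluster 2. The groups did not overlap, and Foxp3 rose by a log2 fold change of 1.72 (SE 0.15, adjusted p = 4.2e-08, edgeR). Thinned to 2000 UMIs, 31.4%, 27.4% and 25.5% of tdTomato+GFP+ cells had a Foxp3 UMI, against 4.8%, 5.17% and 6.06% of tdTomato-GFP- cells (exact permutation test, p = 0.1). Unthinned shares averaged 41.2% and 8.10%, with the tdTomato+GFP+ value first. The tdTomato-GFP- share was below the 7.44% of cluster 0 and above the 2.96% of cluster 9, both thinned, and no expression is read from it. The gate selects on transcription of the reporter allele of this locus, which makes Foxp3 a check of the sort. Flicr, a noncoding RNA at 7573600 to 7581027, overlaps Foxp3 on the same strand and can share its reads. The rise of Flicr (25.6 ± 3.73 CPM against 2.10 ± 2.17 CPM, log2 3.08, adjusted p = 5.72e-05, edgeR) is therefore uncertain.

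The Th17 cytokines themselves split by gene. Il17a differed by a log2 fold change of 0.08 between the gates (SE 0.05, adjusted p = 0.399, edgeR), although its replicates did not overlap, with 9419 to 10116 CPM in tdTomato+GFP+ against 8972 to 9268 CPM in tdTomato-GFP- cells. Il17f, its neighbour on chromosome 1, had 1653, 1285 and 1414 CPM in tdTomato+GFP+ replicates, against 1119, 1131 and 1019 CPM in tdTomato-GFP- replicates. Il17f rose without overlap (log2 0.38, SE 0.08, adjusted p = 0.00607, edgeR), but missed the threshold with 1 cell per clonotype (0.665), without the cells richest in UMIs (0.0767) and without tdTomato-GFP- replicate 3 (0.0501). Of 18 tested Th17 genes 2 rose (Il17f and Ahr), 5 fell (Il23r, Il1r1, Batf, Tmem176a and Tmem176b) and 11 did not pass (median log2 -0.11), and Il1r1 and Tmem176a were called whichever replicate was left out. For 16 genes of the pathogenic Th17 signature the counts were 1 higher and 4 lower (median log2 -0.98).

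Ccl20, whose product attracts CCR6-bearing cells, had 1951, 1882 and 2362 CPM in tdTomato+GFP+, against 276, 453 and 837 CPM in tdTomato-GFP- replicates. Every tdTomato+GFP+ value lay above every tdTomato-GFP- value, but the difference missed the threshold (log2 2.02, SE 0.45, adjusted p = 0.122, edgeR). It passed without tdTomato-GFP- replicate 3 (adjusted p = 0.0425, edgeR) and with DESeq2 (0.00224). After thinning, 64.5% ± 6.11 of tdTomato+GFP+ cells had a Ccl20 UMI, against 16.3% ± 5.30 of tdTomato-GFP- cells (SD, n = 3 each), while cluster 0 had 12.6% and 1.59% in the same order. Gzmb had 424, 454 and 1134 CPM in tdTomato+GFP+, against 196, 285 and 109 CPM in tdTomato-GFP- replicates, without overlap (log2 1.73, SE 0.61, adjusted p = 0.287, edgeR). Cxcl3, a neutrophil chemoattractant gene, had 26.5, 138 and 213 CPM in tdTomato+GFP+, against 854, 1173 and 189 CPM in tdTomato-GFP- replicates. These overlapped through tdTomato-GFP- replicate 3 (log2 -2.52, adjusted p = 0.302, edgeR).

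Among cytokines of inflammatory Th17 cells, Ifng was the clearest difference. Ifng (chromosome 10, 118441046 to 118445892, plus strand, GRCm38), which encodes the macrophage-activating cytokine IFN-gamma, had 108, 115 and 117 CPM in tdTomato+GFP+, against 750.4, 746 and 731 CPM in tdTomato-GFP- replicates. The groups were far apart and Ifng fell (log2 -2.73, SE 0.09, adjusted p = 1.58e-16, edgeR). Thinned, 10.3% ± 0.757 of tdTomato+GFP+ cells had an Ifng UMI, against 42.1% ± 4.27 of tdTomato-GFP- cells, while cluster 0 had 3.58% and 17.7% in the same order and cluster 9 at most 1.02%. Cxcr3, a chemokine receptor of Th1 cells, fell as well, with 1.89, 12.2 and 16.1 CPM in tdTomato+GFP+ against 105, 104 and 86.6 CPM in tdTomato-GFP- replicates (log2 -3.15, SE 0.29, adjusted p = 2.92e-05, edgeR). Tbx21, which encodes the Th1 factor T-bet, averaged 27.2 CPM in tdTomato+GFP+ and 63.0 CPM in tdTomato-GFP- cells (log2 -1.18, adjusted p = 0.000224, edgeR). On the Th1 list 5 of 12 tested genes fell (Tbx21, Ifng, Cxcr3, Cxcr6 and Runx3), and 0 rose (median log2 -0.33). The call of Runx3 was lost after thinning (0.0709).

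Il22 and Csf2, which encode the epithelial cytokine IL-22 and the growth factor GM-CSF, did not pass in spite of large gaps. Il22 had 31.2, 71.0 and 124 CPM in tdTomato+GFP+, against 917, 329 and 615 CPM in tdTomato-GFP- replicates, without overlap (log2 -3.05, SE 0.62, adjusted p = 0.0996, edgeR). It passed with DESeq2 (0.000409) and after thinning (0.0297). Csf2 had 16.1, 12.2 and 4.61 CPM in tdTomato+GFP+, against 48.6, 61.0 and 138 CPM in tdTomato-GFP- replicates (log2 -2.81, SE 0.60, adjusted p = 0.0903, edgeR). Csf2 passed in 6 other settings, among them the fits without tdTomato-GFP- replicate 1 (0.0481) and without replicate 3 (0.000323) of that gate. The thinned share of cells with a Csf2 UMI, 0.884% in tdTomato+GFP+ against 5.05% in tdTomato-GFP- cells, lay at or below the 3.22% and 4.90% of cluster 0 to within the replicate SD. Il10, which encodes the suppressive cytokine, had 232, 147 and 192 CPM in tdTomato+GFP+, against 108, 19.7 and 40.0 CPM in tdTomato-GFP- replicates, without overlap (log2 1.44, SE 0.54, adjusted p = 0.315, edgeR). It passed after thinning (0.0138) and without tdTomato-GFP- replicate 1 (0.00851).

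In tdTomato+GFP+ cells 3 receptors of inflammatory cytokines fell. Il1r1 had 53.0, 49.8 and 45.0 CPM in tdTomato+GFP+ replicates, against 109, 104 and 97.7 CPM in tdTomato-GFP- replicates, without overlap (log2 -1.12, SE 0.13, adjusted p = 6.13e-06, edgeR). Il17re, a subunit of the IL-17C receptor, averaged 24.7 ± 4.44 CPM in tdTomato+GFP+ and 80.5 ± 5.34 CPM in tdTomato-GFP- cells (log2 -1.69, adjusted p = 6.28e-07, edgeR). Il23r, the IL-23 receptor chain, had 55.8, 40.4 and 31.7 CPM in tdTomato+GFP+, against 73.8, 68.9 and 73.3 CPM in tdTomato-GFP- replicates (log2 -0.84, SE 0.18, adjusted p = 0.00482, edgeR). The fall of Il23r was lost with DESeq2 (0.0771), with 1 cell per clonotype (0.266) and without tdTomato-GFP- replicate 1 (0.0797). Il2ra, the high-affinity IL-2 receptor chain, went the other way, with 142, 105 and 126 CPM in tdTomato+GFP+ against 63.4, 55.1 and 48.9 CPM in tdTomato-GFP- replicates (log2 1.05, adjusted p = 8.19e-05, edgeR). Of 22 cytokine receptor genes tested 2 rose, 3 fell and 17 did not pass (median log2 -0.11), while over all genes tested 2.29% rose and 2.75% fell.

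**Figure D3:**
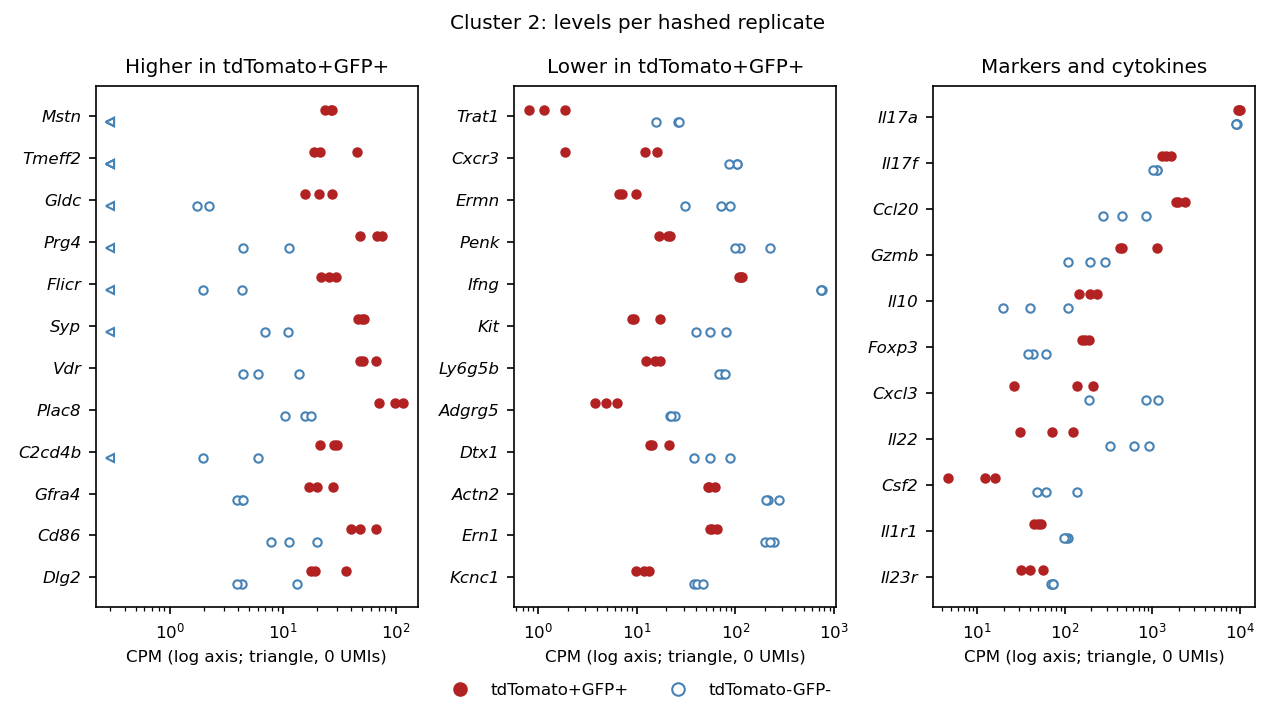
CPM on log axes in cluster 2, per hashed replicate, for the 12 genes with the largest rise, the 12 with the largest fall, and the markers and cytokines. Filled red points are tdTomato+GFP+ and open blue points tdTomato-GFP- replicates, and triangles mark 0 UMIs. In the first and middle panels no gene overlaps between the gates, while in the right panel Cxcl3 does.

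The genes with the largest rise had varied known roles. Mstn had 23.6, 27.4 and 26.5 CPM in tdTomato+GFP+ replicates and 0 UMIs in all 3 tdTomato-GFP- replicates, so it was at least 18.7-fold higher when 3 counts are allowed over that gate (adjusted p = 7.41e-07, edgeR). Tmeff2, which encodes a transmembrane protein with EGF-like and follistatin-like domains, had 160 UMIs in tdTomato+GFP+ against 0 in tdTomato-GFP- cells, at least 17.4-fold higher by the same allowance. The call of Tmeff2 (adjusted p = 0.0465, edgeR) was lost without tdTomato-GFP- replicate 1 (0.15), 2 (0.0695) or 3 (0.0741). Gldc, a glycine cleavage enzyme, had 149 UMIs in tdTomato+GFP+ against 3 in tdTomato-GFP- cells, a 16.2-fold ratio of rates with a 95% counting interval of 5.42 to 79.2. These UMIs are few for the gate of lower depth, and intervals cover counting error only.

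Vdr (chromosome 15, 97854425 to 97910630, minus strand, GRCm38) had 67.2, 50.9 and 47.8 CPM in tdTomato+GFP+, against 6.08, 13.8 and 4.44 CPM in tdTomato-GFP- replicates. The gates were well separated (log2 2.78, SE 0.30, adjusted p = 1.19e-06, edgeR). Prg4, which encodes the lubricant lubricin, averaged 63.8 ± 14.0 CPM in tdTomato+GFP+ and 5.24 ± 5.69 CPM in tdTomato-GFP- cells (log2 3.13, adjusted p = 0.00058, edgeR). Plac8 averaged 94.9 ± 22.2 and 14.6 ± 3.79 CPM (log2 2.73), Syp, the synaptic vesicle protein synaptophysin, 49.5 ± 2.70 and 6.02 ± 5.61 CPM (2.95), and Cd86, a costimulatory ligand, 51.8 ± 14.0 and 13 ± 6.25 CPM (1.98), each with the tdTomato+GFP+ mean first. C2cd4b, Gfra4 and Dlg2 completed the 12, at log2 2.70, 2.25 and 1.81. The call of Dlg2 (adjusted p = 0.019, edgeR) was lost without tdTomato-GFP- replicate 1 (0.270) or 2 (0.0995) and with DESeq2 (0.0775).

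Of the 12 largest falls, Trat1, a T cell receptor-associated adaptor, led with 1.89, 0.812 and 1.15 CPM in tdTomato+GFP+ against 26.1, 15.7 and 26.6 CPM in tdTomato-GFP- replicates (log2 -4.35, SE 0.44, adjusted p = 3.85e-07, edgeR). Actn2, a cytoskeletal alpha-actinin, averaged 56.0 ± 4.93 CPM in tdTomato+GFP+ and 230 ± 39.4 CPM in tdTomato-GFP- cells (log2 -2.05), and Ern1, the IRE1-alpha sensor of the unfolded protein response, 59.3 ± 4.88 and 222 ± 22.7 CPM (-1.93). Both had an adjusted p of 2.11e-10 (edgeR). Kit, a cytokine receptor, and Dtx1, a regulator of Notch signalling, had log2 fold changes of -2.49 and -2.06. Ermn, Ly6g5b, Adgrg5 and Kcnc1 lay between -3.11 and -1.85. Penk, which encodes the opioid precursor proenkephalin, had 17, 21.7 and 20.8 CPM in tdTomato+GFP+ against 224, 112 and 99.9 CPM in tdTomato-GFP- replicates (log2 -2.98, adjusted p = 0.0194, edgeR). Its call was lost without tdTomato+GFP+ replicate 1 (0.0874), 2 (0.0921) or 3 (0.0978), with 1 cell per clonotype (0.0993), after thinning (0.108) and without the cells richest in UMIs (0.0996). Of the 24 genes, 21 were called in every fit that tested them, all but Tmeff2, Dlg2 and Penk.

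Treg genes were mixed in direction. Of 20 tested genes of the Treg list 7 rose, 2 fell and 11 did not pass (median log2 0.32), and Foxp3, which the sort selects on, was among those that rose. Il2ra, Socs2, Entpd1, Nt5e and Ctla4 rose, while Ikzf2, the Treg factor Helios, fell. Entpd1 and Nt5e encode CD39 and CD73, the enzymes that turn extracellular ATP into adenosine. Entpd1 had 34.0, 39.3 and 45.5 CPM in tdTomato+GFP+ against 18.2, 11.8 and 11.1 CPM in tdTomato-GFP- replicates (log2 1.38, adjusted p = 0.000886, edgeR), and Nt5e 145, 103 and 117 CPM against 55.6, 47.2 and 55.5 CPM (log2 1.12, adjusted p = 5.06e-05, edgeR). Neither gene's groups overlapped. Ikzf2 averaged 32.1 ± 9.19 CPM in tdTomato+GFP+ and 72.7 ± 7.26 CPM in tdTomato-GFP- cells (log2 -1.17, adjusted p = 0.000167, edgeR), a call lost with 1 cell per clonotype (0.106). Inhibitory receptor genes tested numbered 10, of which 4 rose (Ctla4, Lag3, Entpd1 and Nt5e) and 0 fell (median log2 0.47). The rise of Lag3 was lost without tdTomato+GFP+ replicate 1 (0.117) or 2 (0.0688), without tdTomato-GFP- replicate 2 (0.199), with 1 cell per clonotype (0.119) and without the cells richest in UMIs (0.221).

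Of the TNF superfamily and T cell receptor activation genes more fell than rose. Of 18 TNF superfamily genes 6 fell and 1 rose (median log2 -0.32), the ligand gene Tnfsf8 (log2 0.30, adjusted p = 0.0278, edgeR). Cd40lg, the CD40 ligand that licenses B cells and dendritic cells, had 163, 193 and 165 CPM in tdTomato+GFP+ against 362, 309 and 411 CPM in tdTomato-GFP- replicates, without overlap (log2 -1.06, SE 0.11, adjusted p = 3.85e-07, edgeR). Fas, a death receptor, averaged 21.9 ± 8.89 CPM in tdTomato+GFP+ and 54.9 ± 10.3 CPM in tdTomato-GFP- cells (log2 -1.42, adjusted p = 0.000719, edgeR). Tnf averaged 62.7 ± 8.66 and 113 ± 13.6 CPM in the same order (log2 -0.82, adjusted p = 0.000517, edgeR), a call lost with 1 cell per clonotype (0.543) and after thinning (0.0870). Of 19 T cell receptor activation genes 6 fell and 1 rose, the factor gene Nfatc1 (log2 0.33, adjusted p = 0.0398, edgeR). Egr1, an immediate early factor, fell by 0.93 on the log2 scale (adjusted p = 0.0295, edgeR), but not without tdTomato+GFP+ replicate 2 (0.103) or tdTomato-GFP- replicate 3 (0.107).

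Naive and central memory genes, which stood high in cluster 2, changed between the gates in both directions. Of 11 tested naive and central memory genes 2 rose, 3 fell and 6 did not pass (median log2 -0.49). Satb1, a chromatin organiser of T cells, had 47.3, 54.4 and 73.8 CPM in tdTomato+GFP+ against 191, 197 and 149 CPM in tdTomato-GFP- replicates (log2 -1.65, SE 0.15, adjusted p = 2.49e-07, edgeR), and Tcf7 fell (log2 -0.81, adjusted p = 0.000281, edgeR). Lef1, a partner of TCF-1, fell too (log2 -1.40, adjusted p = 0.00638, edgeR), but not without tdTomato-GFP- replicate 3 (0.053). Foxp1, a factor of T cell quiescence, rose, with 192 ± 20.4 CPM in tdTomato+GFP+ and 108 ± 12 CPM in tdTomato-GFP- cells (log2 0.83, adjusted p = 9.5e-05, edgeR). Ccr7 rose (log2 0.88, adjusted p = 0.0167, edgeR), yet its call was lost without tdTomato+GFP+ replicate 2 (0.0911) or tdTomato-GFP- replicate 1 (0.251) or 3 (0.0994), with DESeq2 (0.115), after thinning (0.0900), without the cells richest in UMIs (0.288) and with 1 cell per clonotype (0.747).

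Genes of chemotaxis and adhesion changed in both directions, with 5 of 20 higher, 5 lower and a median log2 of -0.05. Ccr4, a receptor of tissue-homing T cells, had 152, 116 and 136 CPM in tdTomato+GFP+ against 55.6, 29.5 and 73.3 CPM in tdTomato-GFP- replicates, without overlap (log2 1.29, SE 0.20, adjusted p = 0.000899, edgeR). Itgav, the integrin alpha-V chain of receptors that activate TGF-beta, averaged 180 ± 36.5 CPM in tdTomato+GFP+ and 73.7 ± 8.28 CPM in tdTomato-GFP- cells (log2 1.28, adjusted p = 1.18e-05, edgeR), a call lost with 1 cell per clonotype (0.225). Of the 25 tested oxidative phosphorylation genes and the 12 interferon response genes, 0 passed with edgeR or DESeq2, and 3 of each list had an unadjusted p under 0.05 in edgeR. For 17 glycolysis genes the counts were 0 higher and 3 lower, for 13 cell cycle genes 0 and 3, and for 18 apoptosis genes 0 and 3, in that order.

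Markers of other cells moved with the gate in part. Summed stromal and endothelial markers, with 7 of 10 seen and Dcn, Col1a2 and Cdh5 at 0, were 129 to 339 CPM in tdTomato+GFP+ and 62.5 to 91.1 CPM in tdTomato-GFP- replicates. A like gap stood in cluster 1 (128 to 326 against 75.1 to 84.8 CPM) and in cluster 3 (158 to 385 against 67.2 to 74.0 CPM). Only 2 genes of the list were tested, with a median log2 of 1.29. Pecam1 of that list went the other way, with 33.2 ± 7.66 CPM in tdTomato+GFP+ and 60.9 ± 12.1 CPM in tdTomato-GFP- cells (log2 -0.84, adjusted p = 0.0128, edgeR). Summed gamma delta T cell markers were 243 to 300 CPM in tdTomato+GFP+ and 185 to 209 CPM in tdTomato-GFP- replicates, and NK and innate lymphoid markers 32.2 to 46.7 and 73.3 to 120 CPM, of which Kit is a part. Tcrg-C1 was most of the gamma delta sum in every replicate, at 226 ± 33.7 CPM in tdTomato+GFP+ and 155 ± 17.8 CPM in tdTomato-GFP- cells. It was called (log2 0.52, adjusted p = 0.0109, edgeR), but not with 1 cell per clonotype (0.255), with DESeq2 (0.0732) or without tdTomato+GFP+ replicate 2 (0.105), among other settings. None of these 3 sums overlapped between the gates, while the sums for B and plasma, myeloid, epithelial, CD8 and innate-like cells did. Within these, the macrophage gene Lyz2 rose (76.8 against 47.6 CPM, log2 0.84, adjusted p = 0.0187, edgeR) and the immunoglobulin gene Ighm fell (12.2 against 40.0 CPM, log2 -1.47, adjusted p = 0.0458, edgeR), tdTomato+GFP+ mean first. The calls of Pecam1, Lyz2 and Ighm were lost without tdTomato-GFP- replicate 2 (0.0728, 0.0873 and 0.0818, in that order), and in further settings. The part of such cells in the gate differences was not tested.

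Few genes had a gate difference in cluster 2 that differed from the one in the other 4 clusters. In those clusters 814 of 9483 tested genes were called (8.58%). The test of the difference itself, an interaction term fitted over 8899 genes with a term for each hashed replicate, called 9 genes (0.101%), 5 with a more positive fold change in cluster 2 and 4 with a more negative one. Odc1, which encodes the enzyme that starts polyamine synthesis, had 1009, 966 and 1008 CPM in tdTomato+GFP+, against 2157, 2054 and 1708 CPM in tdTomato-GFP- replicates of cluster 2. In the other 4 clusters it had 576, 667 and 602 CPM in tdTomato+GFP+, against 1876, 1716 and 1304 CPM in tdTomato-GFP- replicates. Odc1 was lower in tdTomato+GFP+ cells of both, and by less in cluster 2 (log2 -1.02 against -1.46, interaction 0.43, SE 0.07, adjusted p = 0.000485, edgeR).

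Cd83, an activation-induced surface protein that stabilises MHC class II, had 129, 142 and 87.0 CPM in tdTomato+GFP+, against 90.3, 68.9 and 86.6 CPM in tdTomato-GFP- replicates of cluster 2. In the other clusters it had 113, 97.7 and 86.3 CPM in tdTomato+GFP+ against 27.9, 34.6 and 25.1 CPM in tdTomato-GFP- replicates. The gate difference was thus 0.50 in cluster 2 and 1.72 in the others (interaction -1.18, SE 0.22, adjusted p = 0.00346, edgeR). Ms4a4b, a T cell membrane protein, averaged 368 ± 20.0 CPM in tdTomato+GFP+ and 556 ± 3.06 CPM in tdTomato-GFP- cells of cluster 2, and 279 ± 17.5 and 563 ± 43.8 CPM in the others (interaction 0.45, adjusted p = 0.00298, edgeR). Rgs2, a brake on G-protein signals, and Areg, the growth factor amphiregulin, had interactions of -0.59 and -0.41 (adjusted p = 0.0149 and 0.00257, edgeR). Vim, the filament protein vimentin, Gnpda1, a glucosamine-phosphate deaminase, and Psmd14, a proteasome deubiquitinase, had 0.26, 0.72 and 0.73 (adjusted p = 0.0318, 0.0318 and 0.0231, edgeR).

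**Figure D4:**
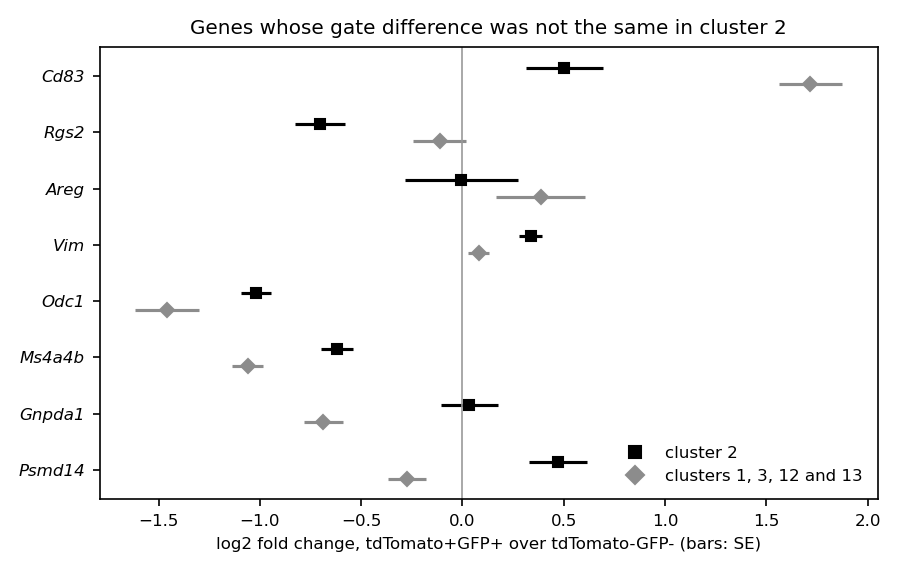
Log2 fold change between the gates (tdTomato+GFP+ over tdTomato-GFP-), with standard error bars, in cluster 2 (black squares) and in clusters 1, 3, 12 and 13 together (grey diamonds), for the 8 named genes whose gate difference differed. The widest gap is that of Cd83, at 0.50 and 1.72.

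Most of these calls depended on single hashed replicates or on which clusters were set beside cluster 2. Without tdTomato-GFP- replicate 1, Odc1 was still called (0.0447), and the adjusted p of the other 7 ran from 0.275 for Rgs2 to 0.56 for Cd83 and Gnpda1. Rgs2 was also lost without tdTomato+GFP+ replicate 2 (0.0511) or tdTomato-GFP- replicate 2 (0.0633), and Vim without tdTomato+GFP+ replicate 2 (0.337) or 3 (0.243) or tdTomato-GFP- replicate 2 (0.293). Psmd14 was lost without tdTomato+GFP+ replicate 2 (0.0511) or tdTomato-GFP- replicate 3 (0.197), and Gnpda1 in every such fit (0.059 to 0.56) but the one without tdTomato+GFP+ replicate 3 (0.0435). Against cluster 3 alone only Odc1 and Psmd14 of these 8 were called, and against cluster 1 alone only Odc1 and Ms4a4b. The value of Areg was -0.02 against cluster 3 (adjusted p = 0.999, edgeR) and -0.23 against cluster 1 (0.957), and that of Cd83 -0.66 (0.925) and -1.17 (0.152). The mix of the other 4 clusters differed between the gates. Among cells of the 5 Il17a-rich clusters, clusters 1, 3, 12 and 13 averaged 37.4%, 25.5%, 5.36% and 3.88% in tdTomato+GFP+ replicates. In tdTomato-GFP- replicates these were 25.1%, 29.6%, 2.10% and 0.740%. Cd83 averaged 171 and 191 CPM in tdTomato+GFP+ cells of clusters 12 and 13. The part of this mix in the interactions was not tested. DESeq2 called 0 of 15078 genes, with 102 at an unadjusted p under 0.05, against 493 in edgeR.

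Cytokine RNAs were not spread evenly over cluster 2 cells. At 2000 UMIs a cell, cells with an Ifng UMI had an Il17f UMI less often than cells without one, in 6 of 6 replicates, by 9.57 points on average (SD 4.59). In tdTomato+GFP+ replicates the Il17f shares were 46.2%, 38.9% and 50% in Ifng-positive cells and 60.5%, 49.9% and 52.1% in Ifng-negative cells. In tdTomato-GFP- replicates they were 36.1%, 43.4% and 40.5% and 43.0%, 57.1% and 50% in the same order. Il10 UMIs were also less frequent in Ifng-positive cells in 5 of 6 replicates, by 8.70 points on average (SD 6.98), tdTomato-GFP- replicate 2 being the exception. Il22 UMIs were more frequent in cells with an Il1r1 UMI in 6 of 6, by 5.40 points (SD 5.51). Il1r1-positive cells were few, with 23, 60 and 27 in tdTomato+GFP+ and 38, 21 and 12 in tdTomato-GFP- replicates. Il22 shares were 3.7% and 2.49% in tdTomato+GFP+ replicate 3, and 25% and 24.1% in tdTomato-GFP- replicate 3, Il1r1-positive cells first. The sign of this pair thus rests on few cells in some replicates. These are 3 of 45 gene pairs listed, given as descriptions.

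By their T cell receptors, cluster 2 cells belonged in part to expanded clones, and many clones spanned several clusters. Of cells with both chains read, 50.7% to 82.3% per replicate were in clones of at least 2 cluster 2 cells. A junction is the variable stretch of a receptor chain that contacts antigen, and a clonotype here is a pair of alpha and beta junctions. Both chains were read in 80.8%, 64.6% and 66.3% of tdTomato+GFP+ and 67.2%, 72.3% and 70.3% of tdTomato-GFP- cells of cluster 2. The junctions of the clones with most cluster 2 cells are shown, since they tie the cells to clusters and replicates. Clone 1, the largest, and clone 2 came from different tdTomato+GFP+ replicates, and clones 4 and 8 share a beta chain. Alpha chains are encoded on chromosome 14 and beta chains on chromosome 6, and capitals mark the first and last codon of each junction, for the conserved cysteine and phenylalanine.
Clone 1 alpha, TRAV6N-7 and TRAJ22: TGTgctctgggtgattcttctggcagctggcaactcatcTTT
Clone 1 beta, TRBV19 and TRBJ1-3: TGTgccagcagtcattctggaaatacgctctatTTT
Clone 2 alpha, TRAV6-7-DV9 and TRAJ56: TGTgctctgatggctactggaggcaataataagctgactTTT
Clone 2 beta, TRBV15 and TRBJ2-7: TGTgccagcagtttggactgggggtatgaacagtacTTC
Clone 4 alpha, TRAV14D-2 and TRAJ40: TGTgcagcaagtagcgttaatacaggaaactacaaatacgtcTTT
Clone 8 alpha, TRAV9D-3 and TRAJ39: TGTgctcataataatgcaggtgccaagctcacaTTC
Clone 4 and clone 8 beta, TRBV20 and TRBJ2-7: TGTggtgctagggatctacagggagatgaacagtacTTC

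Clone 1 held 37 cluster 2 cells of 201 cells in all, of which 196 were in tdTomato+GFP+ replicate 2 and 5 in tdTomato-GFP- replicate 2. Its cells were spread over cluster 1 (61 cells), cluster 3 (37), cluster 6 (16), cluster 12 (13) and cluster 0 (11), among others. Clone 2 held 32 cluster 2 cells of 97, all in tdTomato+GFP+ replicate 3. The beta junction of clones 4 and 8 was carried by 252 cells, of which 249 were in tdTomato+GFP+ replicate 1 and 40 in cluster 2. Of 144 cells with the alpha junction of clone 4 as the main one 46 had a second alpha junction, in all 46 that of clone 8. Conversely, 53 of the 95 cells of clone 8 had a second one, in all 53 that of clone 4. So these 2 clonotypes share both alpha junctions in those cells and are counted apart by the rule of a main alpha chain.

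Clonality was measured as the chance, in percent, that a pair of cells drawn from a replicate share a clonotype (Simpson index). It was 3.8%, 1.16% and 1.53% in tdTomato+GFP+ and 1.41%, 2.76% and 2.33% in tdTomato-GFP- replicates of cluster 2. The groups overlapped, with means of 2.16% ± 1.43 and 2.17% ± 0.689 (SD, n = 3 each; two-sided exact permutation test, p = 1). Against the other 4 Il17a-rich clusters of the same replicates it was 2.17% in cluster 2 and 2.66% in the others, lower in 5 of 6 (two-sided exact sign-flip permutation test, p = 0.0625, smallest possible 0.03125). With beta junctions alone the difference was -0.706 points and lower in 6 of 6 (same exact test, p = 0.03125). Cells in clones of at least 2 cells made up 82.3%, 73.0% and 55.5% of tdTomato+GFP+ and 52.3%, 60.5% and 50.7% of tdTomato-GFP- cells, and the largest clone took 6.67% to 10.6% and 7.56% to 10.5% of them. For 22 beta V segments, mean differences in share from the other 4 clusters ran from -2.50 points (TRBV2) to 2.78 points (TRBV15). None passed (lowest p 0.0938, and 0.859 after adjustment over the 22, exact sign-flip permutation tests). As p cannot fall below 0.03125 here, no segment could pass alone after adjustment. These tests therefore cannot tell whether segment use differed.

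Many cluster 2 cells had clonotypes that occurred in other clusters of their replicate, Il17a-rich or not. Of cluster 2 cells, 90.5%, 84.3% and 70.4% in tdTomato+GFP+ replicates and 59.3%, 68.6% and 62.0% in tdTomato-GFP- replicates had a clonotype also found in clusters 1, 3, 12 or 13. The groups did not overlap, but fewer tdTomato-GFP- cells were there to match, so no test was made. Counted by clonotype, the shares were 74.0%, 68.0% and 55.2% in tdTomato+GFP+ and 38.3%, 49.0% and 40.0% in tdTomato-GFP- replicates. For the clusters outside the Il17a-rich group the shares of cells were 87.4%, 72.1% and 56.8% in tdTomato+GFP+, against 78.5%, 75.6% and 66.2% in tdTomato-GFP- replicates. They were thus above the Il17a-rich shares in every tdTomato-GFP- replicate and below them in every tdTomato+GFP+ replicate, while the number of cells to match differed as well (332 to 1071 and 1078 to 3255 cells outside the Il17a-rich group). The Morisita-Horn index is near 1 for matching and 0 for disjoint clonotype frequencies. Here it was taken in an unbiased form, from pairs of distinct cells, so values above 1 can occur. Between clusters 2 and 3 the index averaged 0.971 in tdTomato+GFP+ against 0.954 in tdTomato-GFP- cells. Between clusters 2 and 1 it averaged 0.902 and 0.946. With clusters 12 and 13 it was 0.912 and 0.896 in tdTomato+GFP+ cells. Clusters outside the Il17a-rich group reached like values in some tdTomato+GFP+ replicates. Cluster 11 had 0.964 and 0.908 in the 2 replicates with enough cells (mean 0.936). Cluster 10 had 1.04, 1.10 and 0.366 (mean 0.836). In tdTomato-GFP- cells the means of clusters 11 and 10 were 0.363 and 0.506. The index was 0.831 and 0.719 with cluster 6, 0.343 and 0.146 with cluster 0, and 0.191 and 0.0374 with cluster 5, tdTomato+GFP+ first. With cluster 9 it was 0.0197 in the 1 tdTomato+GFP+ replicate with enough cells and 0 in tdTomato-GFP- cells.

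**Figure D5:**
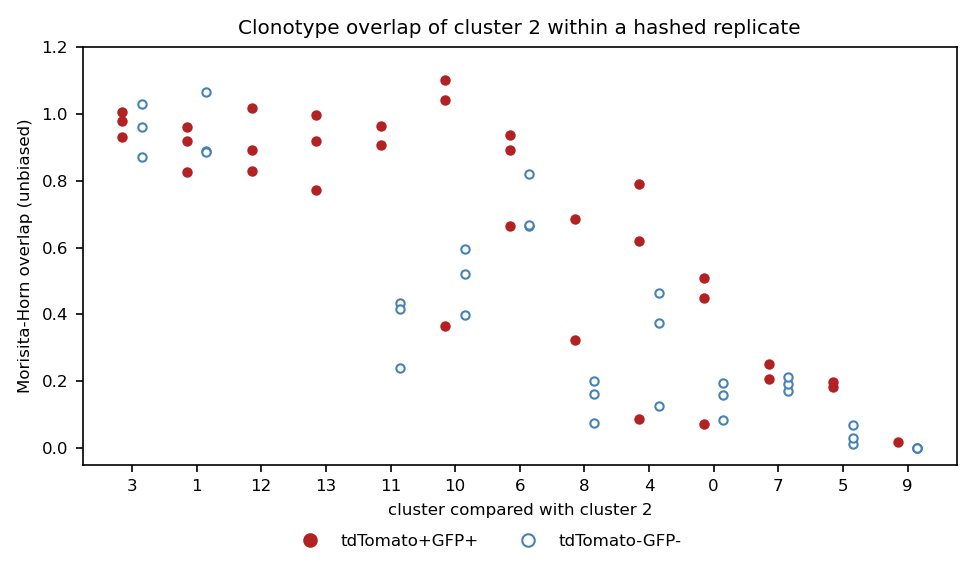
Morisita-Horn overlap (unbiased form, which can exceed 1) of clonotype frequencies between cluster 2 and each other cluster, per hashed replicate, with the Il17a-rich clusters first and the others by falling tdTomato+GFP+ mean. Filled red points are tdTomato+GFP+ and open blue points tdTomato-GFP- replicates. Clusters 3 and 1 lie near 1 in both gates, cluster 11 separates by gate, and of the clusters drawn 5 and 9 have the lowest means.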

How the data were processed

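Single-cell RNA and T cell receptor libraries of both gates were analysed from tables deposited by the authors. Values of the deposited count table were whole UMI counts for each gene in each cell, and the deposited cell and receptor tables gave the gate, hashed replicate, cluster, junctions and V and J genes. In the deposited cell table the hashtag fraction and the receptor counts were not used. The submitters' processing notes name Cell Ranger, Scanpy 1.7.2 and the builds GRCm38 and mm10. Per the labels' protocols, the chemistry was 3′ v3 or 5′ v2, without saying which, and triplicates were hashed with TotalSeq-C on 1 lane. The sources used here did not give filters, clustering settings or strand use.

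The 3 hashtag columns (43.8% of UMIs) were left out, as were 4721 cells without a replicate and 216 without a cluster. Doublets were not called, and cells with several hashtags fall among those without a replicate. All cells had at least 396 genes. Of 17878 receptor entries 17863 matched a cell. Summed UMIs per replicate were 7424984 to 20153550 in tdTomato+GFP+ and 7925662 to 23289046 in tdTomato-GFP- cells. The members and gene lists were chosen with earlier results of these data known. CPM were computed here. Raw counts were summed per replicate and tested by edgeR 4.0.16 (robust glmQLFit, TMM, filterByExpr at a minimum count of 10, two-sided quasi-likelihood test, Benjamini-Hochberg adjustment over all tested genes, threshold 0.05) in R 4.3.3. The interaction fit had 1 term per hashed replicate. DESeq2 1.42.0 was an alternative, with the fits without a filter, thinned to 2000 UMIs, without cells above the 95th percentile of UMIs, with 1 cell per clonotype, with a replicate block and without each replicate. Scripts were tested on simulated data. Differences between clusters use log2(CPM + 20). Levels need at least 20 cells of a cluster in a replicate. Gene positions are from the GENCODE annotation of GRCm38.

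Genes were named by rule, and some items are not reported here. In the cluster description these were the 15 highest and 10 lowest with at least 50 CPM and 1 sign in 6 of 6 replicates. In the gate test they were the 12 largest rises and falls with at least 20 CPM and no overlap, up to 4 called members of each list, and markers and main cytokines, 84 in all. In the interaction they were up to 8 per direction.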

Additional observations from a re-analysis of the deposited data

Results flagged for a closer look

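For 9 genes the gate difference was tested to differ between cluster 2 and clusters 1, 3, 12 and 13 (interaction term in edgeR, adjusted p under 0.05). The value given is the log2 fold change of tdTomato+GFP+ over tdTomato-GFP- cells in cluster 2 minus that in the other clusters. It was -1.18 for Cd83, -0.59 for Rgs2, -0.41 for Areg, 0.26 for Vim, 0.43 for Odc1, 0.45 for Ms4a4b, 0.72 for Gnpda1 and 0.73 for Psmd14. The mix of clusters 1, 3, 12 and 13 differed between the gates. Against cluster 1 alone Areg had -0.23 and Cd83 -1.17, and against cluster 3 alone they had -0.02 and -0.66. Rgs2 averaged 131 CPM in tdTomato+GFP+ and 210.2 CPM in tdTomato-GFP- cells of cluster 2, and 134 and 140 CPM in the others. Psmd14 averaged 105 and 71.9 CPM in cluster 2, and 102 and 120 CPM in the others, so its fold changes had opposite signs, neither of which passed alone (adjusted p = 0.0625 and 0.0915, edgeR). Gnpda1 averaged 80.4 and 75.5 CPM in cluster 2, and 74.1 and 115 CPM in the others, in the same order of gates.

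The receptor segment gene Trav12-3 had a value of -7.65 (adjusted p = 0.00257, edgeR), lost without tdTomato-GFP- replicate 1 (0.607). It had 89 UMIs in tdTomato+GFP+ against 25 in tdTomato-GFP- cells of cluster 2, and 211 against 0 UMIs in the others, so the fitted value depends on the prior count and is no bound. A V segment follows the clones present in a replicate.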

How the results depend on the processing

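The gate test of cluster 2 called 186 genes higher and 224 lower in tdTomato+GFP+ cells. The counts were 111 and 139 with DESeq2, 297 and 297 without a filter, 118 and 149 after thinning, 79 and 88 with 1 cell per clonotype, 168 and 214 without the cells richest in UMIs, and 103 to 176 and 122 to 215 with 1 replicate left out. Fewer genes could be tested after thinning (6295) and with 1 cell per clonotype (5591, against 8139). Leaving out receptor genes, chosen after seeing the data, gave 185 and 223. Of 76 called genes that the text could name 41 were called in every fit that tested them, and 0 of 84 changed sign. The interaction (5 and 4) gave 0 and 0 with DESeq2, 16 and 10 without a filter, 7 and 4 against cluster 1 alone (2 of the 9 genes shared), 18 and 4 against cluster 3 alone (3 shared), and 4 to 8 and 0 to 6 with 1 replicate left out. The cause of these changes was not tested. With a replicate block the gate test called 243 and 283, sharing 392 of the 410 calls, and of the 84 genes only Smad3 (0.103) and Hk2 (0.0664) lost theirs. Samples with the same number deviated together by correlations of 0.155, 0.0402 and 0.138 over 4655 genes, each tdTomato+GFP+ sample correlating best with its own number, and the labels do not say what a number shares. Clonotypes shared between the gates numbered 19, 23 and 32 for equal numbers and 0 to 3 for unequal ones (1 to 20 between replicates of 1 gate), a hint from the data that equal numbers may share an animal. Not every correlation was over 0.1, so the fit without the block was kept. The exact permutation tests between the gates likewise treated the replicates as unpaired. The clonality difference between the gates was -0.00671 points, and -0.824 to 0.496 with 1 replicate left out, so its sign rests on single replicates. That between cluster 2 and the other clusters (-0.491 points) was -0.706 with beta junctions alone (exact sign-flip test, p = 0.0313). Depth limits the tdTomato-GFP- gate most, with 450293 UMIs in the shallowest replicate of cluster 2.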
